A study of Saccharomyces cerevisiae with 8 samples.

Results

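The 30 genes described here encode the enzymes that turn glucose into ethanol in Saccharomyces cerevisiae, with the enzymes and transcription factors that set their pace. They were chosen as a list of systematic IDs and not by a cut on their values, but with earlier results of these data known. The pathway steps run from YFR053C (HXK1), YGL253W (HXK2) and YCL040W (GLK1) at the entry to YOL086C (ADH1), YMR083W (ADH3) and YBR145W (ADH5) at the end. All 30 are among the 7126 genes of the deposited tables, and all 30 were among the 6174 genes that passed the filter on low counts. RNA was sequenced from 8 libraries of BY4741, a haploid laboratory yeast, in 4 groups of 2. The groups are the mutation strain in libraries titled HP, the control strain titled HP, the mutation strain titled nHP and the control strain titled nHP. Both strains grew in synthetic medium without uracil to mid-exponential phase. The mutation strain is labelled as tolerating oxidative stress better, and the sources used here give neither the mutated gene nor the carbon source. By the series description the medium was supplemented with hydrogen peroxide or left without it, but the medium label gives peroxide to every control library and to no mutation library. HP and nHP are therefore used as titles only, and under the medium label strain and peroxide could not be told apart. The RNA is from whole cultures, in which fewer cells of a type and less RNA per cell cannot be told apart. No label says that the 2 libraries of a group came from separate cultures, so the p-values measure the spread between these libraries, which may be technical.

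In glycolysis, sugar is phosphorylated by hexokinases, split into 3-carbon units by phosphofructokinase, aldolase and triose phosphate isomerase, and oxidised to pyruvate with a net gain of ATP. In fermentation, pyruvate decarboxylase and alcohol dehydrogenase then turn pyruvate into ethanol and restore NAD+. Yeast ferments glucose in this way even in air, its glycolytic transcripts are among the most abundant of the cell, and many steps have several isoenzymes that are made under different conditions. Gcr1, with its partner Gcr2 and the general factor Rap1, drives many of these genes through CTTCC boxes that lie beside Rap1 sites, and Tye7 is a further activator.

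Such paired elements can be read in the upstream sequence of 4 of the genes. Whether they play a part in the levels given below was not tested. The windows are 60 bases of the R64 reference genome (RefSeq), on the strand of the gene, with matches to CTTCC and to ACCCNNACA, a core of the Rap1 consensus, in capitals on either strand. That of PGK1 is chrIII:137254-137313 (plus strand, 492 to 433 bases before the start codon), that of ENO1 chrVII:1000426-1000485 (plus strand, 501 to 442 bases before it), that of CDC19 chrI:71113-71172 (plus strand, 673 to 614 bases before it) and that of ADH1 chrXV:161234-161293 (minus strand, 699 to 640 bases before it).
PGK1: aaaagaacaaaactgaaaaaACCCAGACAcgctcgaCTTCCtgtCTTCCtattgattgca
ENO1: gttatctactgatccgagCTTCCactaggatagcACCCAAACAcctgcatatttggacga
CDC19: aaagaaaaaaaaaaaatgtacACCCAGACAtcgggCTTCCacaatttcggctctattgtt
ADH1: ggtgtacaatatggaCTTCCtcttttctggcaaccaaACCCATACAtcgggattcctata

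Within 800 bases before the start codon, searched on both strands with overlapping matches counted, CTTCC stood at least once in 26 of the 30 genes (86.7%) and in 82.0% of 5997 nuclear protein-coding genes. At least 3 copies were found in 15 of the 30 and in 27.7% of all. ACCCNNACA stood in 11 of the 30 (36.7%) and in 8.1% of all, and both motifs with centres at most 30 bases apart stood in the 4 genes above and in 0.8% of all. A match is a stretch of letters and not a measured binding site. Which genome build the authors used is not stated in those sources. The gene lengths behind the deposited RPKM equalled the R64 coding lengths, within 0.5 bases, for 5848 of 5856 genes compared and for all 30.

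Libraries held 8296523 to 11202362 counted reads. No read was counted for LEU2 or MET17, which BY4741 lacks, in any library; a count of 0 leaves room for up to 0.268 to 0.362 CPM, depending on the library. Of 5 markers of mating type a, the mating type of BY4741, all 5 fell in the mutation strain under both titles, with summed levels of 40.8 to 42.0 CPM in HP mutation, 1710 to 2028 in HP control, 28.5 to 32.3 in nHP mutation and 2213 to 2545 CPM in nHP control libraries, and none at 0. The 4 markers of mating type alpha summed to 63.1 to 68.7, 57.4, 45.9 to 50.2 and 68.7 to 69.6 CPM in these groups. The part of this difference in the results below was not tested.

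Levels between genes were compared as RPKM, which corrects for gene length. FBA1, for aldolase, had the highest mean RPKM of the 30, at 10519.5 over the 8 libraries, rank 4 among all genes. TDH3, for the main glyceraldehyde-3-phosphate dehydrogenase, followed at 8666 and ADH1, for the main alcohol dehydrogenase, at 7019. At the other end stood PDC6, a minor pyruvate decarboxylase gene, at 10.9 RPKM, PDC5, another minor one, at 36.4, and the regulator gene GCR1 at 38.0. Together the 30 genes held 5.41% and 5.63% of all counts in the HP mutation libraries, 7.03% and 6.98% in the HP control libraries, 6.27% and 7.04% in the nHP mutation libraries and 7.34% and 7.41% in the nHP control libraries. The HP mutation libraries were thus the lowest, and the 2 nHP mutation libraries differed from each other by more than the other pairs did. With 2 libraries against 2, an exact permutation test cannot give a two-sided p below 0.333, so these shares carry no test.

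**Figure D1:**
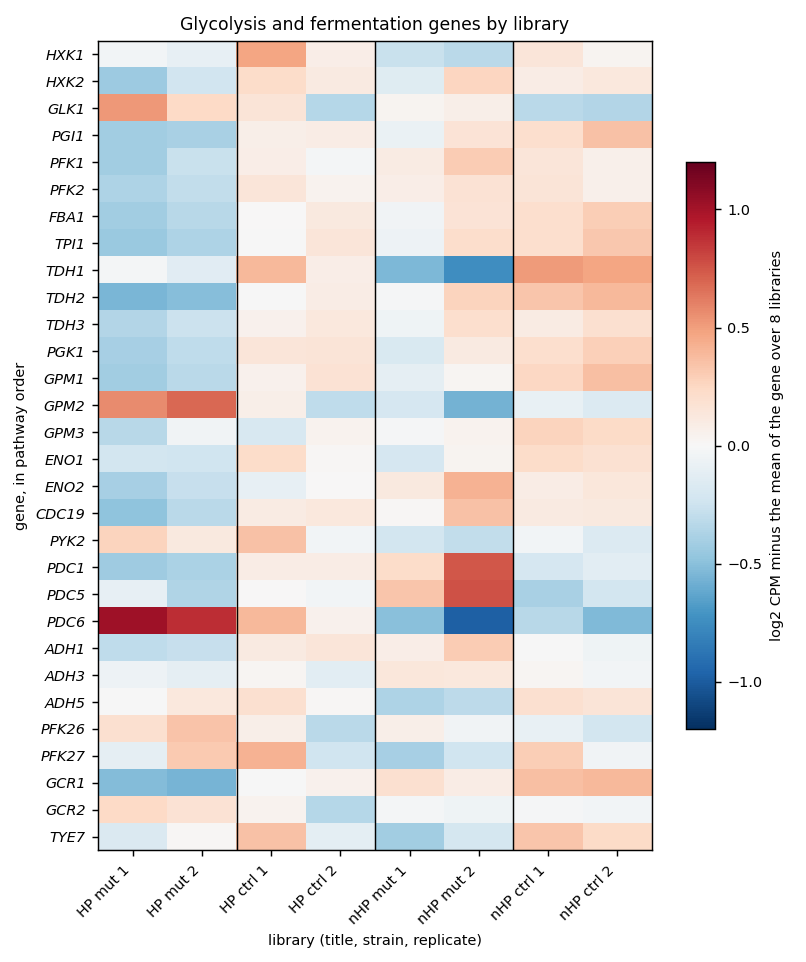
Colour gives the log2 CPM of each of the 30 genes (rows, in pathway order) minus its own mean over the 8 libraries (columns, 2 replicates for each of the 4 groups, divided by black lines). In the HP mutation libraries most rows are blue, while GLK1, GPM2, PDC6 and PFK26 are red; in the nHP mutation libraries PDC1 and PDC5 are red and TDH1 and PDC6 blue.

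Below, CPM is the usual count scaled by library size, here after TMM normalisation, and a gene rose, fell or was called when edgeR's quasi-likelihood test gave it an adjusted p (Benjamini-Hochberg, over the 6174 genes tested) below 0.05. Log2 fold changes are followed by ± their standard error and compare 2 libraries with 2. Comparisons that share a group are not independent of each other. The HP mutation libraries, for instance, enter both the HP strain comparison and the comparison of titles in the mutation strain.

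The first comparison sets the strains against each other under the title nHP. PDC1 and PDC5, which encode pyruvate decarboxylases, rose in the mutation strain, and TDH1, ADH5 and TYE7 fell, while the other 25 genes did not pass. Rises took 2 of the 30 genes, against 11.4% of all genes, and falls took 3, against 9.91%. With TMM scaling the number called is thus not above the background. The median log2 fold change was −0.19 over the 30 genes and −0.02 over all genes. Without composition normalisation the all-gene median moved by −0.13, and 2 of the 30 rose and 10 fell, as they also did in limma fitted to log2(RPKM + 1). Of the 6174 genes tested, these fits called 1655 and 1511. ADH5, TDH1 and PDC5 stayed called whichever library was left out, while the number called among the 30 ranged from 3 (without nHP mutation replicate 2 or either nHP control replicate) to 10 (without HP control replicate 1) and was 9 without HP control replicate 2.

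Among HP libraries, 14 of the 30 genes differed between the strains. Falls took 1 of 3 genes of hexose phosphorylation, 4 of 5 of upper glycolysis, 4 of 11 of lower glycolysis and none of the 6 of ethanol fermentation. In that last set PDC1 and ADH1 were 1.41-fold and 1.34-fold lower and narrowly missed the threshold (edgeR adjusted p = 0.0542 and 0.0512). HXK2, PGI1, PFK1, PFK2, TPI1, TDH2, PGK1, GPM1, CDC19 and GCR1 fell in the mutation strain, by 1.29-fold to 1.49-fold, and GPM2, PDC6, PFK26 and GCR2 rose. The 10 falls of 30 stand beside 14.0% of all genes that fell and the 4 rises beside 14.7% that rose. The median log2 fold change was −0.35 over the 30 genes and −0.05 over all genes. The split was 5 rises and 15 falls without composition normalisation, 5 and 16 in DESeq2, and 2 and 10 in limma fitted to log2(RPKM + 1). Over all genes these fits called 1640, 1478 and 1332. GPM2 and GCR1 stayed called whichever library was left out. With HP mutation replicate 1 left out these were the 2 kept of 14. The number kept was 6 when HP mutation replicate 2 or HP control replicate 2 was dropped, 8 for nHP control replicate 2 and 9 for nHP control replicate 1.

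In the mutation strain, HP libraries set against nHP libraries gave the most calls. All 5 genes of upper glycolysis, PGI1, PFK1, PFK2, FBA1 and TPI1, fell, as did HXK2, TDH2, GPM1, ENO2, CDC19, PDC1, PDC5, ADH1 and GCR1. TDH1, GPM2, PYK2, PDC6 and ADH5 rose. The 14 falls and 5 rises among 30 stand beside 24.1% and 25.2% of all genes, and the median was −0.33 over the 30 genes against 0.02 over all genes. Without composition normalisation the all-gene median moved by 0.12, with 10 rises and 12 falls, and in limma fitted to log2(RPKM + 1) it was 7 and 11. Over all genes these fits called 3157 and 3049. Of the 19 calls, 9 were kept without HP mutation replicate 1, namely those of ADH5, GPM2, PDC6, PFK1, TDH2, PDC1, PDC5, PFK2 and GCR1, and these 9 were kept whichever library was left out.

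In the control strain, none of the 30 genes was called between HP and nHP libraries, where 1.44% of all genes rose and 0.518% fell. In edgeR 4 of the 30 had an unadjusted p under 0.05, and DESeq2 and limma-voom also called none after adjustment. With RLE factors, with scaling without the 50 most abundant genes and when 10 CPM in 2 libraries was required, edgeR called 1 of the 30, lower in HP, in each case. Over all genes these settings called 118, 122 and 117. The gene nearest the threshold was GCR1, at −0.35 ± 0.08 with an edgeR adjusted p of 0.0563. The values ran from −0.35 for GCR1 to 0.65 ± 0.18 for PDC6, with a median of −0.07 over the 30 and 0.00 over all genes. Without HP control replicate 2, 3 of the 30 were called.

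The difference between strains in the HP effect was tested as an interaction, subtracting the HP against nHP log2 difference of the control strain from that of the mutation strain. It was positive for TDH1, GPM2, PDC6 and ADH5 and negative for PFK1, PFK2, CDC19, PDC1, PDC5 and ADH1. These 4 and 6 of 30 genes stand beside 14.6% of all genes called in each direction. Without composition normalisation the all-gene median moved by 0.15, with 5 positive and 3 negative calls, and in limma fitted to log2(RPKM + 1) it was 4 and 2. Over all genes these fits called 1897 and 1711. GPM2 and PDC5 stayed called whichever library was left out. Of the 10 calls the number kept was 2 with nHP control replicate 1 left out, 3 with HP mutation replicate 1, 4 with nHP mutation replicate 2, 5 with HP mutation replicate 2 and 6 with nHP control replicate 2 left out.

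At the entry of glycolysis, HXK2, for the hexokinase that prevails on glucose and also takes part in glucose repression, was lowest in the HP mutation libraries. HXK2 had 517 and 594 CPM in HP mutation, 813 and 752 in HP control, 630 and 837 in nHP mutation and 744 and 760 CPM in nHP control libraries. Both HP mutation values lay under all others. The fall was −0.49 ± 0.13 against the HP control strain (edgeR adjusted p = 0.0184), which ended without nHP control replicate 2 or HP mutation replicate 1 (−0.47 and −0.37), and −0.40 ± 0.13 against nHP (0.0269). The call against nHP ended without nHP mutation replicate 2, either nHP control replicate or HP mutation replicate 1 (−0.40 to −0.17), and also without composition normalisation and in limma on log2 RPKM (−0.27 each, adjusted p = 0.076 to 0.1002). GLK1, for glucokinase, pointed the other way but did not pass. It had 4129 and 3394 CPM in HP mutation, 3193 and 2266 in HP control, 2941 and 3005 in nHP mutation and 2294 and 2246 CPM in nHP control libraries, a strain difference of 0.46 ± 0.17 in HP (0.0561) and 0.39 ± 0.17 in nHP (0.117). GLK1 overlaps another annotated gene, YCL042W, and reads of the 2 could not be told apart if counting ignored the strand. HXK1, for a hexokinase induced on poor carbon sources, ranged from 1363 to 2358 CPM and passed in no comparison.

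All 5 genes of upper glycolysis fell in HP within the mutation strain. PFK1 and PFK2 encode the alpha and beta subunits of phosphofructokinase, the committed step. PFK1 stood at 528 and 586 CPM in HP mutation, 744 and 693 in HP control, 755 and 867 in nHP mutation and 780 and 735 CPM in nHP control libraries. PFK2 stood at 461 and 485, 656 and 614, 627 and 669, and 663 and 620 CPM in the same groups. For both subunits the HP mutation pair lay below the other 6 libraries. In HP against nHP of the mutation strain PFK1 fell by 0.54 ± 0.11 and PFK2 by 0.45 ± 0.10 on the log2 scale (edgeR adjusted p = 0.00177 and 0.00254), calls kept without any single library. Against the HP control strain PFK2 fell by 0.42 ± 0.10 (0.00812), not without HP mutation replicate 1 (−0.36), and PFK1 by 0.37 ± 0.11 (0.0265), not without either nHP control replicate, either HP mutation replicate or either HP control replicate (−0.44 to −0.27), and not with only the 4 libraries compared fitted (−0.33, 0.0839).

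PGI1, for phosphoglucose isomerase, TPI1, for triose phosphate isomerase, and FBA1, for aldolase, were likewise lowest in the HP mutation libraries. TPI1 had 2343 and 2459 CPM in HP mutation, 3171 and 3530 in HP control, 3055 and 3676 in nHP mutation and 3665 and 3975 CPM in nHP control libraries. PGI1 had 1109 and 1129, 1550 and 1569, 1402 and 1657, and 1703 and 1887 CPM in those groups. In both genes the HP mutation pair overlapped no other group, and the HP control and nHP mutation pairs overlapped each other. Against the HP control strain PGI1 fell by 0.48 ± 0.12 and TPI1 by 0.48 ± 0.14 (edgeR adjusted p = 0.0118 and 0.0231), and against nHP by 0.45 ± 0.12 and 0.49 ± 0.14 (0.00816 and 0.0119). FBA1 had 8377 and 8913 CPM in HP mutation, 11272 and 12174 in HP control, 10925 and 12550 in nHP mutation and 12924 and 13808 CPM in nHP control libraries, a fall against nHP of 0.44 ± 0.16 (0.0406) and a strain difference in HP of −0.44 ± 0.16 that did not pass (0.0624). Leaving out either HP mutation replicate ended all the calls named for these 3 genes. So did HP control replicate 2 for the strain difference of both PGI1 (−0.49 to −0.44 over these libraries) and TPI1, and either nHP control replicate for that of TPI1 (−0.52 to −0.38 over all 5). The falls against nHP also ended without nHP mutation replicate 2 (−0.31 for PGI1, −0.33 for TPI1 and −0.32 for FBA1), and that of FBA1 without any of the 4 control libraries (−0.44 to −0.42). With all libraries of the groups compared kept, the FBA1 call also ended under 6 alternatives, among them RLE factors (−0.45, adjusted p = 0.0553) and limma on log2 RPKM (−0.31, 0.111 and 0.119).

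Among the 3 genes for glyceraldehyde-3-phosphate dehydrogenase, TDH1, whose product is known from slowly growing cells, did not follow TDH2 and TDH3. TDH1 had 2274 and 2092 CPM in HP mutation, 3010 and 2431 in HP control, 1585 and 1370 in nHP mutation and 3290 and 3191 CPM in nHP control libraries. The nHP mutation libraries were the lowest and did not overlap any others. In nHP the mutation strain had 2.19-fold less TDH1 than the control strain (−1.13 ± 0.14, edgeR adjusted p = 0.000274), kept without any single library. Within the mutation strain TDH1 rose by 0.56 ± 0.14 in HP (0.00591), not without HP mutation replicate 1 (0.52). The interaction was 0.82 ± 0.19 (0.0107), not without nHP control replicate 1 (0.81) or HP mutation replicate 1 (0.78).

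TDH2 had 1153 and 1181 CPM in HP mutation, 1680 and 1787 in HP control, 1671 and 2021 in nHP mutation and 2121 and 2204 CPM in nHP control libraries, lowest in HP mutation. It fell by 0.66 ± 0.12 against nHP in the mutation strain (edgeR adjusted p = 0.00108), kept without any single library, and by 0.57 ± 0.12 against the HP control strain (0.0057), not without HP mutation replicate 1 (−0.53). TDH3, with 6718 to 9868 CPM, passed in no comparison, and stood at −0.39 ± 0.16 for both of these (0.058 and 0.0797). The coding sequences of TDH2 and TDH3 in R64 are 95.8% identical and share a run of 173 identical bases, so how reads were divided between them is uncertain. TDH1 is 90.2% identical to TDH2 and 88.9% to TDH3, with shared runs of 129 and 92 bases.

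Further down, PGK1 and GPM1, for phosphoglycerate kinase and phosphoglycerate mutase, fell in the HP strain comparison. PGK1 had 2206 and 2353 CPM in HP mutation against 3208 and 3235 CPM in HP control libraries, and GPM1 had 1469 and 1561 against 2029 and 2205 CPM. The falls were 0.50 ± 0.13 and 0.48 ± 0.12 on the log2 scale (edgeR adjusted p = 0.0174 and 0.0109). Both ended without either HP mutation replicate or HP control replicate 2 (−0.55 to −0.40), and that of PGK1 also without either nHP control replicate (−0.47). Against the nHP mutation libraries, with 1821 and 1984 CPM, GPM1 fell by 0.33 ± 0.12 (0.0352), not without nHP mutation replicate 2, either nHP control replicate or either HP mutation replicate (−0.37 to −0.25), nor under 5 alternatives with all libraries of the groups compared, among them no composition normalisation (−0.20, 0.101), while PGK1 stood at −0.32 ± 0.13 (0.0646).

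GPM2, a homologue of GPM1 not known to supply mutase activity, rose where GPM1 fell. It had 98.8 and 107 CPM in HP mutation, 70.0 and 53.9 in HP control, 57.7 and 44.9 in nHP mutation and 62.5 and 59.3 CPM in nHP control libraries. Only the HP mutation pair stood apart, above the 6 others. GPM2 rose 2.005-fold against nHP (edgeR adjusted p = 0.000208), by 0.74 ± 0.13 on the log2 scale against the HP control strain (0.0026), and had an interaction of 0.99 ± 0.20 (0.00466), and each of these calls was kept without any single library. GPM3, another such homologue, ranged from 34.3 to 51.9 CPM and passed in no comparison.

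Of the enolase genes, ENO2 fell and ENO1 did not pass. ENO2, the form that prevails on glucose, had 3877 and 4228 CPM in HP mutation, 4782 and 5123 in HP control, 5528 and 6814 in nHP mutation and 5447 and 5627 CPM in nHP control libraries. Its fall of 0.61 ± 0.15 against nHP in the mutation strain (edgeR adjusted p = 0.00571) ended without HP mutation replicate 1 (−0.53). ENO1 ranged from 2346 to 3235 CPM. The pair is 94.8% identical in coding sequence, with a shared run of 112 bases, so the division of reads between them is uncertain too.

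The last step of glycolysis is pyruvate kinase, made mainly by CDC19 and, where glucose is scarce, by PYK2. CDC19 had 1525 and 1703 CPM in HP mutation, 2282 and 2332 in HP control, 2160 and 2727 in nHP mutation and 2297 and 2312 CPM in nHP control libraries. The HP mutation pair was the lowest, and the other groups lay close together except for nHP mutation replicate 2. CDC19 fell by 0.60 ± 0.13 against nHP (edgeR adjusted p = 0.00348), not without HP mutation replicate 1 (−0.51), by 0.51 ± 0.13 against the HP control strain (0.0154), and stood at 0.00 ± 0.13 between titles in the control strain. The fall against the HP control strain ended without either nHP control replicate, either HP mutation replicate or HP control replicate 2 (−0.60 to −0.41). PYK2 had 108 and 96.9 CPM in HP mutation, 114 and 87.6 in HP control, 76.9 and 73.0 in nHP mutation and 87.6 and 80.1 CPM in nHP control libraries. Within the mutation strain it rose by 0.45 ± 0.12 in HP (edgeR adjusted p = 0.0102). That call ended without nHP mutation replicate 2 or HP mutation replicate 1 (0.43 and 0.39). Its strain difference in HP was 0.03 ± 0.12 and its interaction 0.19 ± 0.17, and neither passed.

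Pyruvate decarboxylase, which commits pyruvate to ethanol, differed between the strains in its HP against nHP difference for all 3 of its genes. PDC1, the major gene, had 4968 and 5141 CPM in HP mutation, 7142 and 7134 in HP control, 7782 and 11197 in nHP mutation and 5811 and 6146 CPM in nHP control libraries. The mutation strain was thus above the control strain in nHP and below it in HP, although nHP mutation replicate 2 lay far above replicate 1. In nHP PDC1 rose 1.59-fold in the mutation strain (0.67 ± 0.18, edgeR adjusted p = 0.0205), not without nHP mutation replicate 2 (0.39), either nHP control replicate (0.64 and 0.72) or either HP mutation replicate (0.67). In HP its strain difference was −0.50 ± 0.18 (0.0542). Within the mutation strain PDC1 fell 1.88-fold in HP (−0.91 ± 0.18, 0.00157), kept without any single library. The interaction was −1.16 ± 0.25 (0.00672), not without nHP control replicate 1 (−1.11) or HP mutation replicate 1 (−1.12).

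PDC5, a minor isoenzyme gene known to be switched on when PDC1 is lost, moved with PDC1. It had 56.2 and 46.9 CPM in HP mutation, 60.4 and 58.6 in HP control, 75.6 and 102 in nHP mutation and 45.8 and 51.7 CPM in nHP control libraries. The nHP mutation pair was the highest. PDC5 rose by 0.86 ± 0.14 in the nHP mutation strain (edgeR adjusted p = 0.00168), fell by 0.78 ± 0.14 in HP against nHP of the mutation strain (0.000929) and had an interaction of −1.07 ± 0.20 (0.00367), all kept without any single library. PDC5 over PDC1, as RPKM within each library, was 0.0113 and 0.00912 in HP mutation and 0.00846 and 0.00822 in HP control libraries. It was 0.00972 and 0.00909 in nHP mutation and 0.00787 and 0.00842 in nHP control libraries. The coding sequences of PDC1 and PDC5 are 87.2% identical and share a run of 65 bases, so the division of reads between them is uncertain. Its part in the PDC5 values was not tested.

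PDC6, the least expressed pyruvate decarboxylase gene, went the opposite way. It had 33.1 and 30.2 CPM in HP mutation, 21.5 and 16.9 in HP control, 11.6 and 8.29 in nHP mutation and 13.0 and 11.4 CPM in nHP control libraries. Both HP groups lay above both nHP groups, and HP mutation lay highest. PDC6 rose 3.19-fold in HP within the mutation strain (1.67 ± 0.18, edgeR adjusted p = 5.47e-05), kept without any single library, and 1.66-fold against the HP control strain (0.73 ± 0.16, 0.00739), not without HP mutation replicate 1 (0.69). The interaction was 1.02 ± 0.26 (0.0136), not without nHP mutation replicate 2 (0.82), nHP control replicate 1 (0.94) or HP mutation replicate 1 (0.98). Between titles in the control strain PDC6 stood at 0.65 ± 0.18 (0.127).

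Of the alcohol dehydrogenases that form ethanol, ADH1 fell and ADH5 rose in HP within the mutation strain. ADH1 had 5915 and 6030 CPM in HP mutation, 7882 and 8098 in HP control, 7742 and 9005 in nHP mutation and 7266 and 7039 CPM in nHP control libraries, lowest in HP mutation. Its fall against nHP was 0.49 ± 0.15 on the log2 scale (edgeR adjusted p = 0.0168), not without either nHP control replicate or either HP mutation replicate (−0.50 to −0.46), nor in limma on log2(RPKM + 0.1) (−0.36, 0.0527) or with only the 4 libraries compared fitted (0.0569). The ADH1 interaction was −0.65 ± 0.21 (0.0363), which ended without any library other than nHP mutation replicate 1 (−0.66 to −0.51), and with RLE factors, scaling without the 50 most abundant genes or limma on log2 RPKM (−0.65 to −0.49, adjusted p = 0.0517 to 0.0844). ADH5, a minor cytosolic form, had 154 and 168 CPM in HP mutation, 176 and 155 in HP control, 119 and 124 in nHP mutation and 175 and 172 CPM in nHP control libraries. Here nHP mutation stood apart below the other 6 libraries. ADH5 fell by 0.52 ± 0.09 in the nHP mutation strain (0.00276) and rose by 0.41 ± 0.09 in HP against nHP of that strain (0.00368), both kept without any single library, with an interaction of 0.47 ± 0.13 (0.0181) that ended without either nHP mutation replicate, nHP control replicate 1 or HP mutation replicate 2 (0.41 to 0.52). ADH3, for the mitochondrial enzyme, ranged from 430 to 516 CPM and passed in no comparison.

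**Figure D2:**
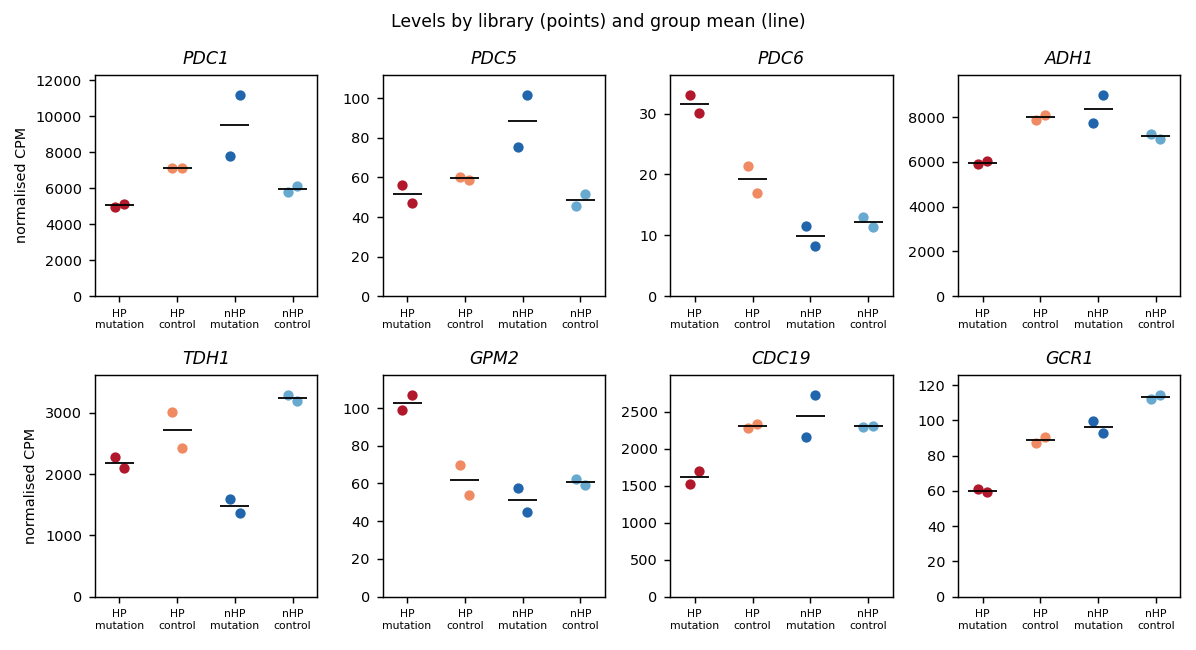
Points are the 2 libraries of each group and lines their mean, as normalised CPM from 0, for 8 genes. The nHP mutation libraries are highest for PDC1 and PDC5 (75.6 and 102 CPM) and lowest for TDH1, while the HP mutation libraries are highest for PDC6 and GPM2 and lowest for ADH1, CDC19 and GCR1.

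Ratios between genes of the same step, taken from RPKM within each library, do not depend on the scaling between libraries. PDC6 over PDC1 was 0.00666 and 0.00587 in HP mutation, 0.0030 and 0.00237 in HP control, 0.00149 and 0.00074 in nHP mutation and 0.00223 and 0.00185 in nHP control libraries. GPM2 over GPM1 was 0.0534 and 0.0544 in HP mutation and 0.0180 to 0.0274 in the other 6 libraries. GLK1 over HXK2 was 7.77 and 5.55 in HP mutation and 2.87 to 4.54 in the other 6 libraries. The HP mutation libraries were the highest in all 3 of these ratios. TDH1 over TDH3 was lowest in nHP mutation, at 0.191 and 0.139, against 0.357 and 0.324 in nHP control libraries, and ADH5 over ADH1 was lowest there as well, at 0.0152 and 0.0136 against 0.0239 and 0.0242. PYK2 over CDC19 was highest in HP mutation, at 0.0700 and 0.0562, and between 0.0264 and 0.0495 elsewhere. These ratios are given without a test, and other pairs that were compared in the same way are left out here.

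**Figure D3:**
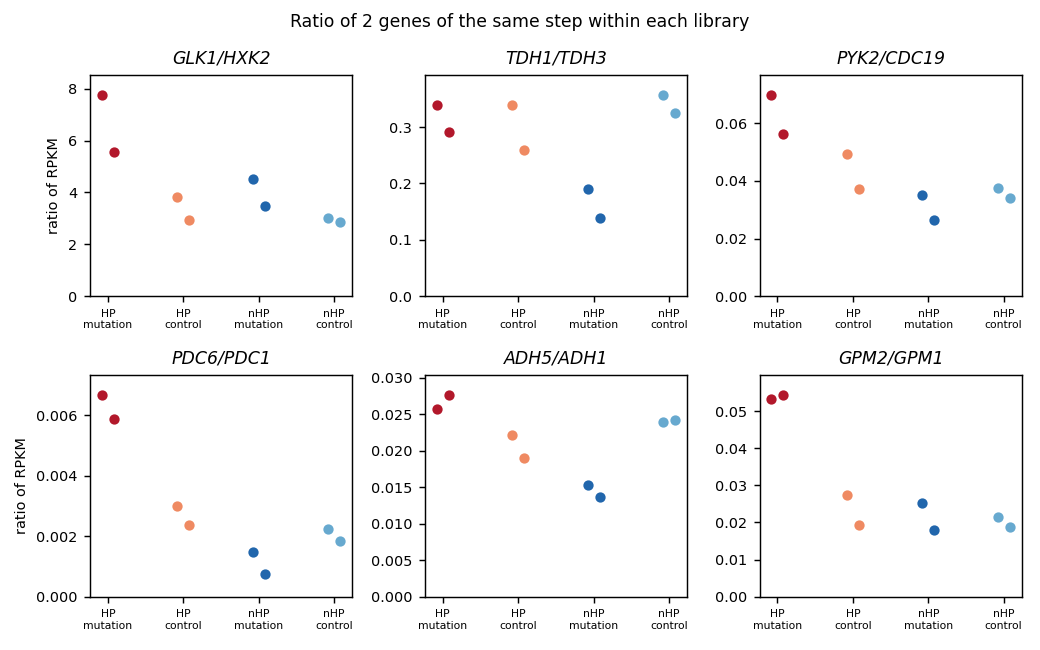
Each point is the ratio of 2 RPKM values in 1 library, on an axis from 0, for 6 pairs of genes in the 4 groups. GPM2/GPM1 and PDC6/PDC1 are highest in the HP mutation libraries, and TDH1/TDH3 and ADH5/ADH1 lowest in the nHP mutation libraries.

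PFK26 and PFK27 make fructose 2,6-bisphosphate, the activator of phosphofructokinase. PFK26 had 184 and 204 CPM in HP mutation against 168 and 129 CPM in HP control libraries, a rise of 0.39 ± 0.12 (edgeR adjusted p = 0.0334) that ended without either HP mutation replicate or HP control replicate 2 (0.23 to 0.49). The PFK26 call also ended in limma on log2 RPKM with either pseudocount (adjusted p = 0.0695 and 0.0694) and with only the 4 libraries compared fitted (0.0883). PFK27 ranged from 57.6 to 101 CPM and passed in no comparison.

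Among the transcription factors, GCR1 fell in the HP mutation libraries in both comparisons. It had 60.8 and 59.4 CPM in HP mutation, 87.1 and 90.5 in HP control, 99.5 and 92.6 in nHP mutation and 112 and 114 CPM in nHP control libraries. The 4 groups did not overlap. GCR1 fell by 0.68 ± 0.08 in HP against nHP of the mutation strain (edgeR adjusted p = 0.000121) and by 0.56 ± 0.08 against the HP control strain (0.00076), both kept without any single library, and stood at −0.24 ± 0.08 between strains in nHP (0.0607) and −0.33 ± 0.12 in the interaction (0.0565). GCR2, for the partner protein of Gcr1, had 159 and 152 CPM in HP mutation against 139 and 107 CPM in HP control libraries, a rise of 0.35 ± 0.11 (0.038). That call was kept without HP control replicate 1 and ended without any other library (0.18 to 0.38, the lowest without HP control replicate 2), and likewise in limma on log2 RPKM (adjusted p = 0.0615 and 0.0614) and with only the 4 libraries compared fitted (0.103). TYE7 had 118 and 137 CPM in nHP mutation against 198 and 185 CPM in nHP control libraries, a fall of 0.59 ± 0.14 (0.013) that ended without any of these 4 libraries (−0.69 to −0.47).

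Among neighbouring pathways, listed by ID with earlier results of these data known, genes for using ethanol and making acetate rose in the HP mutation libraries. Of 10 such genes, 8 rose and 2 fell against nHP of the mutation strain, and 6 rose and 1 fell against the HP control strain, with medians of 0.87 and 0.69. Over all genes, 25.2% rose and 24.1% fell against nHP of the mutation strain, and 14.7% rose and 14.0% fell against the HP control strain, which are also the shares to set beside the lists that follow. ADH2, for the alcohol dehydrogenase that oxidises ethanol, had 97.9 and 75.7 CPM in HP mutation, 34.7 and 36.5 in HP control, 21.9 and 21.0 in nHP mutation and 34.0 and 37.5 CPM in nHP control libraries. On the list of gluconeogenic steps and paralogues of the 30, 5 of 8 rose and 1 fell against nHP, and 4 rose and 1 fell against the HP control strain. PCK1, for the entry step of gluconeogenesis, rose 4.39-fold and 3.97-fold in these comparisons (edgeR adjusted p = 2.82e-05 and 5.63e-05). Calls of genes outside the 30 were not checked under other settings or without single libraries. Of 9 genes of glycerol synthesis and breakdown, 6 rose and none fell against nHP, while 4 rose and 2 fell against the HP control strain. In nHP, where 11.4% of all genes rose and 9.91% fell, 1 of the ethanol and acetate genes was higher and 3 lower in the mutation strain, while no gluconeogenic gene and 1 glycerol gene, lower, passed. Between titles in the control strain 1 glycerol gene rose and 1 ethanol or acetate gene fell, beside 1.44% of all genes that rose and 0.518% that fell.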

How the data were processed

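RNA sequencing of 8 yeast libraries was analysed as deposited. Total RNA was made into libraries with an NEBNext Ultra kit, per the labels' protocols, and TopHat2 2.0.9 was used, per the submitters' processing notes. No source used here names the counting program, strand setting, build or annotation. The deposited counts are whole reads per gene, with no normalisation. The deposited RPKM values equal, by a check of the values, the counts over the library total and 1 length per gene. A deposited summary of genes per RPKM range was not used. Of 7126 IDs, 6030 matched the R64 annotation, which gave names.

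Groups follow the titles. The test was edgeR 4.0.16 (R 4.3.3) on the counts, with its standard filter on groups, TMM scaling and 1 quasi-likelihood model of 4 group means over all 8 libraries (4 residual degrees of freedom, common dispersion 0.00651). Tests were two-sided and a gene was called at a Benjamini-Hochberg adjusted p below 0.05 over 6174 genes. Standard errors were derived from the F statistic. The model was tested on simulated data. Limits from counts of 0 (3 counts) cover counting error only.

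Alternatives were RLE factors, no composition normalisation, scaling without the 50 most abundant genes, dropping the filter, asking for 10 CPM in at least 2 libraries, limma-voom (limma 3.58.1), DESeq2 1.42.0, limma fitted to log2(RPKM + 1) or log2(RPKM + 0.1), adding a replicate block, fitting only the 4 libraries compared, and leaving out each library in turn, where the remaining library of a group is assumed to vary like the other groups. Coding sequences were aligned with Biopython 1.88. The 30 genes and the lists of neighbouring pathways were chosen with earlier results of these data known. Every one of the 30 is reported. Those called in any comparison are given by library, but PGK1, GPM1, PFK26, GCR2 and TYE7 only for some of the groups. Genes outside the 30 were named only from the fixed lists, and those picked as examples were picked after their values were seen.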

Additional observations from a re-analysis of the deposited data

Results flagged for a closer look

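In 10 of the 30 genes the HP against nHP difference itself differed between the strains, with an adjusted p below 0.05 in edgeR's interaction test. Of all 6174 genes tested, 29.2% were called in it, so the share among the 30 is near the background. The log2 values, mutation strain minus control strain, were 1.02 for PDC6, 0.99 for GPM2, 0.82 for TDH1 and 0.47 for ADH5. They were −1.16 for PDC1, −1.07 for PDC5, −0.65 for ADH1, −0.60 for CDC19, −0.47 for PFK1 and −0.44 for PFK2. Without composition normalisation these values were 1.17 for PDC6, 1.13 for GPM2, −1.01 for PDC1 and −0.92 for PDC5, so the order of their sizes depends on the scaling. Those of GPM2 and PDC5 kept an adjusted p below 0.05 without any single library, and the libraries that ended the call of TDH1, ADH5, PDC1, PDC6 and ADH1 are named with the values of these genes above. For CDC19, PFK1 and PFK2 the call ended without nHP mutation replicate 2, either nHP control replicate or either HP mutation replicate, and also without HP control replicate 2 for CDC19 (−0.68 to −0.40) and HP control replicate 1 for PFK1 (−0.54 to −0.34) and PFK2 (−0.48 to −0.36). With all libraries kept, the calls of CDC19, PFK1 and PFK2 also ended without composition normalisation (−0.44, −0.31 and −0.29, adjusted p = 0.051, 0.106 and 0.107) and in limma on log2 RPKM. Those of PFK1 and PFK2 ended as well with no filter and when 10 CPM in 2 libraries was required, and that of PFK1 with RLE factors and with scaling without the 50 most abundant genes.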

How the results depend on the processing

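The 48 calls among the 30 genes, over the 5 comparisons, gave 902 values under the alternatives. None changed direction, 742 stayed past the threshold and 160 did not; 37 calls held in every alternative that left out no single library, and 16 also without each library. The other 11 were those of PFK1, PFK26 and GCR2 between strains in HP, of HXK2, FBA1, GPM1 and ADH1 within the mutation strain, and of CDC19, PFK1, PFK2 and ADH1 in the interaction. DESeq2, limma-voom and the replicate block kept all 48. In the nHP strain comparison the main number called was 5, and it was 12 without composition normalisation and in limma on log2(RPKM) with either pseudocount, 8 in DESeq2 and with only the 4 libraries compared, and 3 to 10 with 1 library left out. In the HP strain comparison it was 14, and 2 to 18 with 1 library left out. Within the mutation strain it was 19, and 9 to 23 with 1 library left out. Within the control strain it was 0, and 1 with RLE factors, with scaling without the 50 most abundant genes and when 10 CPM in 2 libraries was required, and 0 to 3 with 1 library left out. For the interaction it was 10, and 6 in limma on log2(RPKM) with either pseudocount, and 2 to 13 with 1 library left out. The RPKM values are scaled by library total only, so limma on RPKM and the fit without composition normalisation are not separate checks of the scaling. In nHP they moved the all-gene median by −0.124, for log2(RPKM + 1), and −0.128. The cause of the shifts in number called was not tested.

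With the replicate block the numbers were 9, 23, 25, 2 (1 higher and 1 lower) and 14 in the same order of comparisons. The labels do not say that a replicate number marks a shared culture or day. Over 6174 genes the difference of replicate 1 minus 2 correlated between the groups compared at 0.23 for both strain comparisons, 0.10 within the mutation strain and 0.30 within the control strain.

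As a share of summed RPKM in place of counts, the 30 genes held 4.43% in HP mutation, 5.58% in HP control, 5.30% in nHP mutation and 5.83% in nHP control libraries. Over all genes the number called was 1318 in nHP (418 to 1860 over the alternatives), 1769 in HP (661 to 2495), 3043 within the mutation strain (1773 to 3466), 121 within the control strain (51 to 220) and 1803 for the interaction (724 to 2554).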

Other observations

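Other transcription factors of glycolytic genes, a list of 8 chosen by ID, gave 2 rises and 1 fall between strains in nHP, 1 rise in HP, 2 rises and 1 fall in HP against nHP of the mutation strain and none in the control strain, by edgeR's quasi-likelihood test as above. These counts stand beside 11.4% and 9.91% of all genes in nHP, and 14.7% that rose in HP. The shares were 25.2% and 24.1% within the mutation strain, where the list is not above the background, and 1.44% and 0.518% within the control strain. ABF1, for a general promoter-binding factor, rose in the mutation strain in nHP (0.36 ± 0.10) and in HP (0.74 ± 0.10), and in HP against nHP of the mutation strain (0.53 ± 0.10). REB1, for another such factor, rose between strains in nHP (0.42 ± 0.10). MIG2 encodes a repressor that takes part in glucose repression. MIG2 had 82.4 and 130 CPM in HP mutation, 139 and 89.2 in HP control, 57.7 and 57.1 in nHP mutation and 98.2 and 91.4 CPM in nHP control libraries. It fell by 0.72 ± 0.22 between strains in nHP and rose by 0.88 ± 0.22 in HP against nHP of the mutation strain. RAP1, whose protein binds beside CTTCC boxes, fell by 0.25 ± 0.08 in HP against nHP of the mutation strain, with an interaction of −0.47 ± 0.12. PDC2 and THI3, for activators of pyruvate decarboxylase genes, MIG1 and HAP4 passed in no comparison. The calls of this list were likewise not checked under other settings or without single libraries.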
